A study of Mus musculus with 8 samples.

Results

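The insulin-like growth factor (IGF) binding proteins and the IGF axis were followed in mouse embryonic fibroblasts (MEFs) through 8 genes: Igfbp2, Igfbp3, Igfbp4, Igfbp5, Igfbp6, Igfbp7, Igf1 and Igf1r. Every probe annotated to these genes was taken, which gave 21 of the 45281 probes on the array and 8 of its 19057 named genes. The set was put together because Igfbp3 was lower on the Ing1-/- and DKO arrays of these data, so the Igfbp3 values describe that choice and carry no test. The question was whether the other binding proteins followed Igfbp3 or moved the other way. RNA was measured on 1-colour Illumina arrays, 2 for each of 4 genotypes: cells labelled Gadd45a-/-, cells labelled Ing1-/-, cells labelled with both knockouts (DKO) and wild type (WT). All cells came from male C57BL/6 embryos at E15.5 and were harvested at confluence in passage 3, with no treatment named. The sources used here do not say how the alleles were made. The design text speaks of duplicates for each MEF line, so the 2 arrays of a genotype can stem from a single line. A genotype effect and a line effect then cannot be told apart. The p-values measure the spread of arrays within genotypes, which may be technical.

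IGF1 and IGF2 are secreted growth factors that act through the receptor tyrosine kinase IGF1R, which signals through IRS proteins, PI3K and AKT. IGF binding proteins hold these ligands outside the cell and lengthen or limit their action, and proteases such as PAPP-A release the ligand by cutting the binding protein. Fibroblasts secrete both ligands and several binding proteins, and IGFBP3 is known as a growth-restraining member that is raised in many senescent cells. Gadd45a is a stress-induced protein that has been linked to DNA demethylation, and Ing1 is a chromatin protein that reads methylated histones.

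The promoters of Igfbp3 and Igf1 are printed because the set was chosen on Igfbp3 and Igf1 held the only call in it, and because DNA methylation acts on CpG sites. Capitals mark CpG sites, and each window runs 5′ to 3′ over the 250 bases before and the 50 bases after a transcription start of the gene (RefSeq, GRCm38.p6).
Igfbp3, chr11:7213874-7214173, minus strand: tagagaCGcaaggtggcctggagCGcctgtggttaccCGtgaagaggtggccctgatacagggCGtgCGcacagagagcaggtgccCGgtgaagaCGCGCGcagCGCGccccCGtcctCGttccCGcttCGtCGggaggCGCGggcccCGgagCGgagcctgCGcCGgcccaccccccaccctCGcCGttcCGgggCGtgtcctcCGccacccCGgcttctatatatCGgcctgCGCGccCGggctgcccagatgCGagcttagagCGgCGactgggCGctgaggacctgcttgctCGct
Igf1, chr10:87860861-87861160, plus strand: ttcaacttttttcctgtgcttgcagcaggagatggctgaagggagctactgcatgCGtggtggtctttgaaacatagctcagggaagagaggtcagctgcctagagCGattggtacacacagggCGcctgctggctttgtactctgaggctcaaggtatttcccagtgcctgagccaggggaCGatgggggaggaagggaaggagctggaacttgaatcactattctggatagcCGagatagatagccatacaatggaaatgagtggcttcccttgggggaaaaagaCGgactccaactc
The Igfbp3 window held 37 CpG sites and 71.7% G and C, and 5.58% of 32851 RefSeq promoter windows of the same length held at least as many CpG sites. The Igf1 window held 6 CpG sites and 52.3% G and C, close to the median of 7 over all windows. Neither window held TATAAA or GGGCGG on either strand, which 13.6% and 35.7% of all windows did. Only exact matches were counted, and near matches, such as the tatata in the Igfbp3 window, were not. Methylation was not measured here. The members lie on chromosomes other than those of Gadd45a (chromosome 6) and Ing1 (chromosome 8), and Igfbp1 and Igfbp3, like Igfbp2 and Igfbp5, are neighbours with 0 protein-coding genes between them.

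Values are log2 normalized intensities, on which a difference of 1 is a doubling (more for a dim probe, since the offset shrinks its differences), and a probe counted as above background on an array where its detection p was under 0.01. Each array had 14277 to 14778 probes above background. The filter (above background on both arrays of at least 1 genotype) passed 14867 probes of 8655 named genes. Of the 21 member probes 15 passed, at least 1 for each member. Arrays of 1 genotype correlated across probes at 0.9876 to 0.9937 and arrays of different genotypes at up to 0.9898, and probes are not independent replicates. Set against WT, both Gadd45a probes read higher on arrays carrying the Gadd45a-/- label (by 1.00 and 1.29, limma adjusted p = 0.011 and 0.00911) and the DKO label (by 0.92 and 1.31, limma adjusted p = 0.00715 and 0.00375). This goes against these labels, save where a probe reads a part of the gene that was not deleted. The Ing1 probe was above background on no array and checks nothing. Every direction below is therefore that of arrays as labelled. All 9 fibroblast markers with a probe were above background on all 8 arrays, and all 4 hepatocyte markers on none.

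Igfbp3, the binding protein that carries most IGF in serum, was brightest on both WT arrays and dimmest on the arrays labelled Ing1-/- and DKO. The probe that passed the filter read 6.82 and 6.31 on the arrays labelled Gadd45a-/-, 5.82 and 6.07 on Ing1-/-, 5.90 and 5.81 on DKO, and 7.82 and 7.32 on WT. No knockout array reached a WT array, the Gadd45a-/- pair lay between, and the Ing1-/- and DKO pairs overlapped. The difference from WT was -1.01 in Gadd45a-/- and -1.62 in Ing1-/-, where 1 of the 2 arrays was above background. None of the DKO arrays was above background, so that DKO has only a bound: it was at least 3.09-fold lower than WT and at least 1.54-fold lower than Gadd45a-/-. From low to high the order was DKO and Ing1-/-, whose arrays overlapped and whose order was not measured, then Gadd45a-/-, then WT. The other Igfbp3 probe missed the filter, being above background on 1 WT array only. It read 5.54 and 5.28 on Gadd45a-/-, 5.00 and 5.26 on Ing1-/-, 4.82 and 5.15 on DKO, and 6.27 and 5.53 on WT. Replicate 1 of WT was the brighter of the pair at both probes. Less RNA per cell and fewer cells that make it cannot be told apart in RNA pooled from a culture, here and for every gene below.

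**Figure D1:**
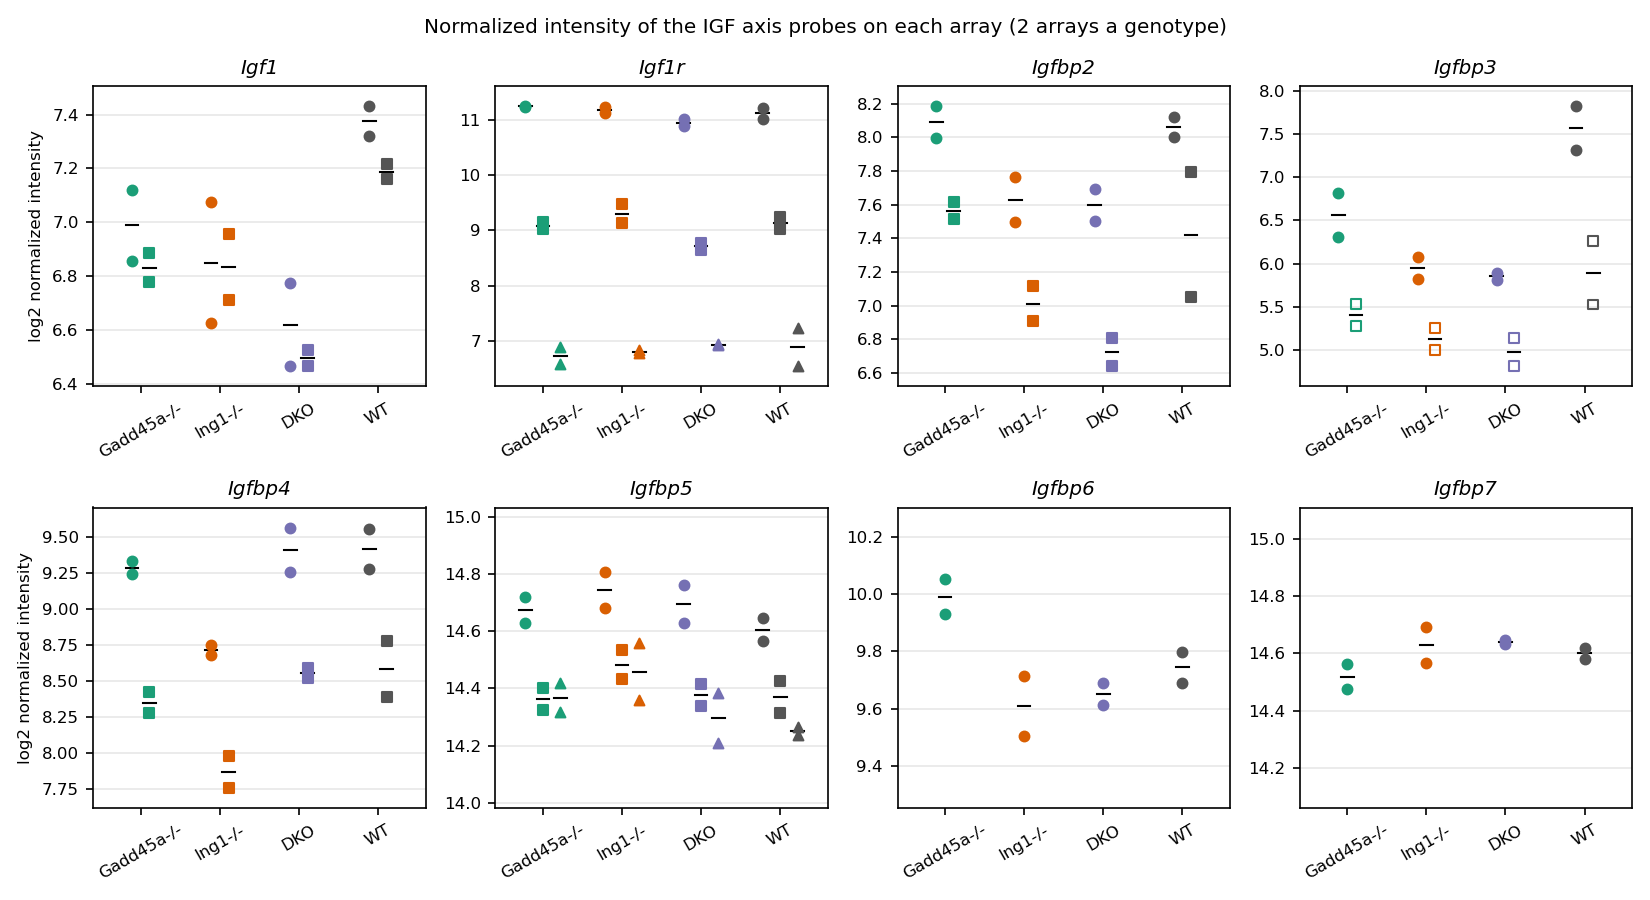
Normalized intensity (log2, vertical axis) of each member on the 2 arrays of Gadd45a-/-, Ing1-/-, DKO and WT, with a black line at the mean. Circles, squares and triangles are the probes of a gene, in that order of brightness, open symbols the Igfbp3 probe that missed the filter, and other probes that missed it are not drawn. Both Igf1 probes and the Igfbp3 probe that passed lie higher on both WT arrays than on any knockout array, and both Igfbp4 probes are lowest on the 2 Ing1-/- arrays.

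Among the other binding proteins, Igfbp2 shared with Igfbp3 the lower values on Ing1-/- and DKO arrays, without a call. Igfbp2 is a binding protein abundant in fetal tissue. Its brighter probe read 8.00 and 8.18 on Gadd45a-/-, 7.50 and 7.76 on Ing1-/-, 7.69 and 7.50 on DKO, and 8.00 and 8.12 on WT. The Ing1-/- and DKO pairs overlapped each other and lay below the Gadd45a-/- and WT pairs, which overlapped. The difference from WT was 0.03 ± 0.14 (SE) in Gadd45a-/-, -0.43 ± 0.14 in Ing1-/- (limma adjusted p = 0.32) and -0.46 ± 0.14 in DKO (limma adjusted p = 0.151), and DKO minus Gadd45a-/- was -0.49 ± 0.14 (limma adjusted p = 0.286). The dimmer Igfbp2 probe read 7.62 and 7.51 on Gadd45a-/-, 7.12 and 6.91 on Ing1-/-, 6.64 and 6.81 on DKO, and 7.79 and 7.05 on WT. There the 2 WT arrays differed by more than any other pair, the WT range took in part of the Ing1-/- range, and DKO was lowest. Its difference between DKO and WT was -0.70 ± 0.23 (limma adjusted p = 0.17). That difference was -1.07 without WT replicate 2 and -0.33 without WT replicate 1, so its size hung on the split WT pair.

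Igfbp4 had another pattern: it was lowest on the Ing1-/- arrays, while DKO overlapped WT. Igfbp4 is a binding protein that mostly inhibits IGF action and is the main substrate of PAPP-A. Its brighter probe read 9.34 and 9.25 on Gadd45a-/-, 8.75 and 8.68 on Ing1-/-, 9.26 and 9.57 on DKO, and 9.56 and 9.28 on WT. Its other probe read 8.42 and 8.28 on Gadd45a-/-, 7.76 and 7.98 on Ing1-/-, 8.52 and 8.59 on DKO, and 8.78 and 8.39 on WT. At both probes the 2 Ing1-/- arrays lay below the other 6 arrays, and the DKO and WT pairs overlapped. Against WT the brighter probe differed by -0.70 ± 0.15 in Ing1-/- (95% interval -1.05 to -0.36, limma adjusted p = 0.129) and by -0.01 in DKO (95% interval -0.35 to 0.34). DKO minus Ing1-/- was 0.70 ± 0.15 (limma adjusted p = 0.0928) at the brighter and 0.69 ± 0.16 (limma adjusted p = 0.112) at the other probe. The interaction, the DKO value set against the sum of both single knockouts, was 0.83 ± 0.21 and 0.92 ± 0.22 (limma adjusted p = 0.285 and 0.257). No Igfbp4 value therefore passed, but the brighter probe's Ing1-/- minus WT and DKO minus Ing1-/- differences did with a variance trend and robust eBayes (limma adjusted p = 0.0268 and 0.0165) and with no background correction (limma adjusted p = 0.0354 and 0.0247). At the other probe DKO minus Ing1-/- also passed under these settings (limma adjusted p = 0.043 and 0.0485), and Ing1-/- minus WT did not.

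Igfbp5 and Igfbp7 lay close to WT in every knockout. Igfbp5, a binding protein made by fibroblasts and muscle that also binds matrix, had 3 probes, which lay between 14.21 and 14.81 on all 8 arrays. Their 9 differences from WT ran from -0.01 to 0.21, the highest being Ing1-/- minus WT at the dimmest probe (95% interval -0.08 to 0.50, limma adjusted p = 0.621). On both Ing1-/- arrays all 3 probes were brighter than on both WT arrays, though without a call. Igfbp7, a binding protein with low affinity for IGF, had 1 probe above background, which read 14.48 and 14.56 on Gadd45a-/-, 14.57 and 14.69 on Ing1-/-, 14.63 and 14.65 on DKO, and 14.62 and 14.58 on WT. The Igfbp7 difference between DKO and WT was 0.04 (95% interval -0.22 to 0.29), and its other 4 probes were above background on no array. The Igfbp5 and Igfbp7 probes reached 48.5% to 73.1% of the raw intensity of the brightest probe on their array, where a bead signal may respond less to RNA, and flags for saturation were not used here.

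Igfbp6, which prefers IGF2 over IGF1, had 1 probe and was highest on the arrays labelled Gadd45a-/-. It read 10.05 and 9.93 on Gadd45a-/-, 9.50 and 9.71 on Ing1-/-, 9.69 and 9.61 on DKO, and 9.69 and 9.80 on WT. Both Gadd45a-/- arrays lay above the other 6, and the Ing1-/- pair overlapped those of DKO and WT. Gadd45a-/- minus WT was 0.25 ± 0.12 (limma adjusted p = 0.487) and DKO minus Gadd45a-/- was -0.34 ± 0.12 (limma adjusted p = 0.394).

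The ligand Igf1 was lower on all 6 knockout arrays than on both WT arrays, at both of its probes, and it held the only call among the members. The brighter Igf1 probe read 7.12 and 6.86 on Gadd45a-/-, 6.63 and 7.07 on Ing1-/-, 6.77 and 6.47 on DKO, and 7.32 and 7.43 on WT. The dimmer one read 6.88 and 6.78 on Gadd45a-/-, 6.96 and 6.71 on Ing1-/-, 6.53 and 6.47 on DKO, and 7.16 and 7.22 on WT. At the dimmer probe DKO lay below both single knockouts, which overlapped, and at the brighter one the Ing1-/- pair spanned most of the knockout range. In DKO the dimmer probe fell by 0.69 ± 0.12 against WT (95% interval -0.98 to -0.40, limma adjusted p = 0.0248), and the brighter probe differed by -0.76 ± 0.19 (95% interval -1.19 to -0.32, limma adjusted p = 0.075). The dimmer probe differed from WT by -0.36 ± 0.12 in Gadd45a-/- and by -0.35 ± 0.12 in Ing1-/- (limma adjusted p = 0.289 and 0.356), and its interaction was 0.02 (95% interval -0.39 to 0.43). The DKO call was lost without either DKO array (limma adjusted p = 0.137 and 0.177) or either WT array (0.0901 and 0.0801), and under 4 other settings at 0.0608 to 0.0658. The brighter probe passed with median scaling (-0.92, limma adjusted p = 0.0181).

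Macrophages are another known source of Igf1 in tissue. Of 10 macrophage markers with a probe, 2 were above background on all arrays, and Adgre1, Tyrobp and Ptprc on none. Their summed linear intensity was 1460 to 1564 on Gadd45a-/-, 1179 to 1372 on Ing1-/-, 762.8 to 781.5 on DKO and 757.3 to 774 on WT arrays, so that it was higher in both single knockouts, where Igf1 was lower, and overlapped WT in DKO. All 5 tested macrophage markers rose in Gadd45a-/-, 1 rose in Ing1-/- and none passed in DKO against WT (limma, 0 at an unadjusted p under 0.05). Over all tested probes 0.928% rose and 0.404% fell in Gadd45a-/-, 0.202% and 0.215% in Ing1-/-, and 1.85% and 1.95% in DKO. An unadjusted p under 0.05 in limma was held by 12.4%, 10.7% and 15.7% of them. The counts of every marker list stand beside these shares. The 9 fibroblast markers summed to 89220 to 93440 on Gadd45a-/-, 97240 to 99040 on Ing1-/-, 84980 to 89150 on DKO and 104000 to 104400 on WT arrays, lower in every knockout, as Igf1 was. Against WT 1 of the 9 fell in Gadd45a-/-, none in Ing1-/- (limma, 3 at an unadjusted p under 0.05) and 1 in DKO. Of 8 epithelial markers 3 were tested, and 2 rose in Gadd45a-/-, 0 in Ing1-/- (limma, 2 at an unadjusted p under 0.05) and 3 in DKO, with Epcam, Krt5 and Krt14 above background on no array. The epithelial list summed to 529.8 to 563.2 on Gadd45a-/-, 399.2 to 430.7 on Ing1-/-, 630.2 to 638.2 on DKO and 311.8 to 347 on WT arrays. Of 7 cartilage and bone markers 4 were tested, and 2 rose in Gadd45a-/-, 1 in Ing1-/- and 2 in DKO, with sums of 3044 to 3149 on Gadd45a-/-, 2029 to 2289 on Ing1-/-, 2182 to 2583 on DKO and 2126 to 2275 on WT arrays. A linear sum mainly follows the brightest markers of its list, here Sox9, which averaged 10.95 on WT and 10.57 on DKO. Col2a1 rose from 6.23 on WT to 9.22 on DKO (limma adjusted p = 0.000114), which the sum hides. Of 5 endothelial markers Emcn, a surface sialomucin, was tested and the other 4 (Pecam1, Cdh5, Kdr and Tek) were above background on no array. Emcn was above background on no WT array. Against WT it was at least 2.21-fold higher in Ing1-/- (limma adjusted p = 0.0252) and at least 2.43-fold higher in DKO (limma adjusted p = 0.00409). In Gadd45a-/- it was at least 1.52-fold higher but missed the threshold (limma adjusted p = 0.08). The endothelial list summed to 200.2 to 240.1 on Gadd45a-/-, 260.9 to 268.2 on Ing1-/-, 269.3 to 285.9 on DKO and 195.8 to 197 on WT arrays. Like Emcn, the markers Cd52, Krt19, Sfn, Acan and Sp7 were above background on no WT array. C1qb, C1qc and Pkp1 were above it on 1 WT array. These markers, Emcn included, passed the filter through knockout arrays, so their rise was partly a condition of their being tested. Of 4 tested smooth muscle and pericyte markers Myh11, a smooth muscle myosin, rose in Gadd45a-/- and DKO (limma adjusted p = 0.0272 and 0.0137), and the list summed to 32090 to 36320 on Gadd45a-/-, 35910 to 37080 on Ing1-/-, 36940 to 37300 on DKO and 32600 to 34560 on WT arrays. None of 3 tested skeletal muscle markers passed (limma, 1 at an unadjusted p under 0.05 in Gadd45a-/-, 0 in Ing1-/- and 3 in DKO), with sums of 426.1 to 510.4 on Gadd45a-/-, 439 to 470.6 on Ing1-/-, 663.1 to 686.1 on DKO and 463.3 to 502.4 on WT arrays. Without 1 array at a time the markers that rose numbered 1 to 4 for macrophages, 0 to 2 for epithelium and 1 to 2 for cartilage and bone in Gadd45a-/-, and 2 to 3 for epithelium and 1 to 2 for cartilage and bone in DKO. The Emcn call in DKO was kept without each array, and its call in Ing1-/- was lost without any 1 array but WT replicate 1 (limma adjusted p = 0.0524 to 0.178). The Myh11 call was lost with only the arrays compared in Gadd45a-/- and DKO (limma adjusted p = 0.115 and 0.0511). Col3a1, which fell in Gadd45a-/-, lost its call under 3 other settings (limma adjusted p = 0.0576 to 0.135). C1qb and Col2a1, which rose in Ing1-/-, lost that call with only the arrays compared (limma adjusted p = 0.12 and 0.107). Each of these calls was also lost without some single arrays. The part of the marker shifts in the Igf1 and Igfbp3 values was not tested.

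The receptor Igf1r, which binds IGF1 and IGF2 and starts their signal, had 3 tested probes and no call. The brightest read 11.24 and 11.23 on Gadd45a-/-, 11.12 and 11.23 on Ing1-/-, 10.88 and 11.01 on DKO, and 11.02 and 11.21 on WT. Both DKO arrays lay below the other 6 there, just under the lower WT array. The next probe read 9.16 and 9.02 on Gadd45a-/-, 9.48 and 9.13 on Ing1-/-, 8.78 and 8.65 on DKO, and 9.25 and 9.02 on WT, again with both DKO arrays lowest. DKO minus WT was -0.17 ± 0.12 at the brightest (limma adjusted p = 0.588) and -0.42 ± 0.15 at the next (limma adjusted p = 0.229), and DKO minus Ing1-/- was -0.59 ± 0.15 at that probe (limma adjusted p = 0.162). The dimmest tested probe had its 2 WT arrays far apart (6.55 and 7.24) and differed by 0.05 between DKO and WT, so the probes did not share a direction. The remaining probe was above background on no array.

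**Figure D2:**
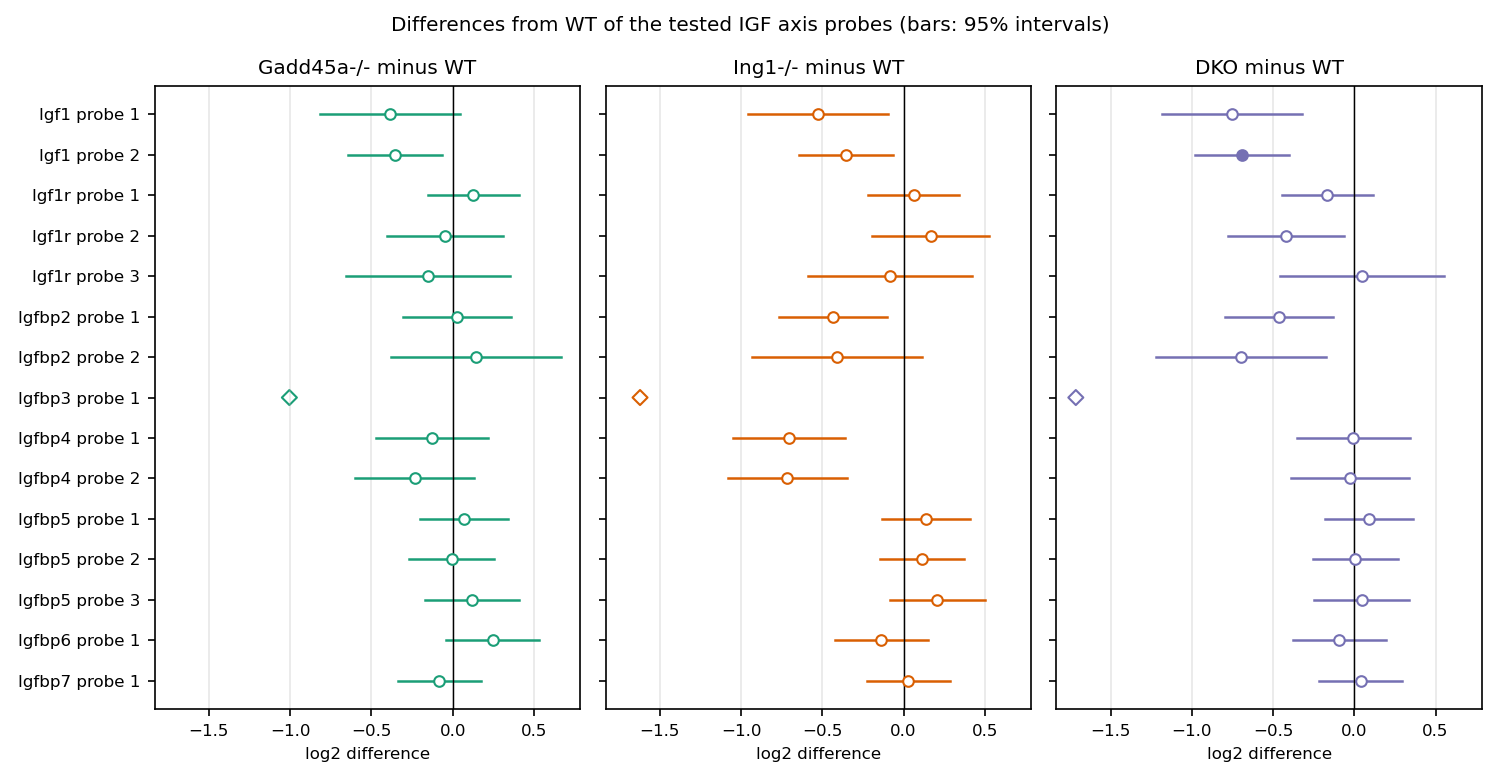
Log2 difference from WT (horizontal axis) of each member probe that passed the filter, with its 95% interval from limma, in Gadd45a-/-, Ing1-/- and DKO. The filled circle is the 1 call (limma adjusted p under 0.05), the dimmer Igf1 probe in DKO, and diamonds are Igfbp3, which has no test and no interval and was at background on both DKO arrays. The Igfbp4 probes lie near -0.7 in Ing1-/- and near 0 in DKO.

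Counted over the 7 members other than Igfbp3, each at its brightest tested probe, limma called 0 in each of the 6 comparisons. In Gadd45a-/- minus WT 0 of 7 also had an unadjusted p under 0.05, where 1.33% of all tested probes were called and 12.4% had an unadjusted p under 0.05. Ing1-/- minus WT had 3 of 7 at an unadjusted p under 0.05 (Igf1, Igfbp2 and Igfbp4), beside 0.417% of all probes called and 10.7% unadjusted. DKO minus WT had 2 of 7 (Igf1 and Igfbp2), beside 3.8% called and 15.7% unadjusted, and there 1 of the 14 member probes was called, the dimmer one of Igf1. The 3 knockouts share the same WT arrays, so these counts are not independent of each other. DKO minus Gadd45a-/- had 3 of 7 (Igf1r, Igfbp2 and Igfbp6), beside 0.39% called and 10.1% unadjusted. DKO minus Ing1-/- had 1 of 7 (Igfbp4), beside 1.11% and 11.7%, and the interaction had 1 of 7 (Igfbp4), beside 0.148% and 9.36%.

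Direction over the members was uneven. The median difference of the 7 members was 0.03 in Gadd45a-/-, -0.14 in Ing1-/- and -0.09 in DKO against WT, and -0.29 for DKO minus Gadd45a-/- and -0.03 for DKO minus Ing1-/-, where the median over all probes lay between -0.01 and 0.01. In DKO 7 of the 14 probes lay below WT with no overlap, beside 22.1% of all probes, and 1 above, beside 23.7%. In Ing1-/- 5 lay below WT, beside 17.3%, and 3 above, beside 21.8%, the 3 above being those of Igfbp5. In Gadd45a-/- 3 lay below, beside 17.9%, and 3 above, beside 21.6%. DKO lay below Gadd45a-/- at 7 probes, beside 22.8%, and above it at 3, beside 20.9%. It lay below Ing1-/- at 5, beside 23.3%, and above it at 3, beside 21.2%. No binding protein had a value that passed as higher in any knockout.

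Among other ligands and receptors of the axis, 3 of 5 listed genes were tested and none passed. Igf2, the fetal ligand, had the largest difference, reading 14.93 and 14.63 on Gadd45a-/-, 14.44 and 14.29 on Ing1-/-, 14.32 and 14.52 on DKO, and 14.13 and 14.19 on WT. All 6 knockout arrays lay above both WT arrays, the opposite of Igf1, and Gadd45a-/- lay highest. Gadd45a-/- minus WT was 0.62 ± 0.14 (limma adjusted p = 0.112), a difference that passed with a variance trend and robust eBayes (0.00314) and with no background correction (0.0139). Igf2r, which clears IGF2, differed from WT by -0.08 to 0.22 over its 2 probes, and Insr, the insulin receptor, by -0.23 to -0.09 at its 1 tested probe, neither with a call. The single probes of Igfbp1, the liver binding protein, and Irs1, a docking protein of the receptor, were above background on no array.

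Of 13 other carriers and proteins with an IGFBP domain 9 were tested. Against WT none rose and 1 fell in Gadd45a-/-, none passed in Ing1-/- (limma, 3 at an unadjusted p under 0.05), and 2 rose and 1 fell in DKO. Of all tested probes 0.928% rose and 0.404% fell in Gadd45a-/-, 0.202% and 0.215% in Ing1-/-, and 1.85% and 1.95% in DKO. In Ing1-/- 10.7% of all tested probes had an unadjusted p under 0.05. The 2 that rose in DKO, Esm1 and Kazald1, were above background on no WT array and passed the filter through genotypes where they were high. The median difference of the 9 was 0.21, 0.13 and 0.45 in Gadd45a-/-, Ing1-/- and DKO, beside medians over all probes of 0.00, 0.01 and 0.01. Esm1, endocan, a secreted proteoglycan with an IGFBP domain, read 5.52 and 5.47 on Gadd45a-/-, 5.23 and 5.47 on Ing1-/-, 6.40 and 6.60 on DKO, and 4.78 and 4.93 on WT. Only the DKO arrays were above background, and Esm1 passed the filter through them alone, so its rise was a condition of its being tested. Esm1 was at least 1.48-fold higher in DKO than in WT (limma adjusted p = 0.00116). Without each array in turn the fitted Esm1 difference between DKO and WT, with WT at background, ran from 1.55 to 1.74. Those fits cannot test the call apart from the filter, since Esm1 was tested only because it was high in DKO. Esm1 also rose against each single knockout, at least 1.52-fold in both comparisons (limma adjusted p = 0.0359 against Gadd45a-/- and 0.0127 against Ing1-/-), calls that were lost without any 1 array of the genotypes compared and, against Gadd45a-/-, also without either Ing1-/- array. The call against Gadd45a-/- was lost under 7 other settings too (limma adjusted p = 0.0613 to 0.151), and that against Ing1-/- with no background correction (limma adjusted p = 0.053).

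Kazald1, a secreted protein with an IGFBP domain known from bone, was above background on the Gadd45a-/- and DKO arrays only. It read 6.16 and 6.41 on Gadd45a-/-, 5.22 and 5.17 on Ing1-/-, 6.57 and 6.22 on DKO, and 4.88 and 5.54 on WT. The Gadd45a-/- and DKO pairs overlapped and lay above the Ing1-/- and WT pairs, and DKO was at least 1.38-fold higher than WT (limma adjusted p = 0.0297), a call lost without either DKO array, either Ing1-/- array or WT replicate 1 (0.0581 to 0.191) and under 3 other settings (0.0502 to 0.109). Gadd45a-/- was at least 1.28-fold higher than WT but missed the threshold (limma adjusted p = 0.08), which it passed with median scaling (0.0339) and without WT replicate 2 (0.0412), and the second Kazald1 probe was at background throughout. Ccn5, a member of the CCN matrix protein family that contains an IGFBP domain, read 11.49 and 11.46 on Gadd45a-/-, 10.22 and 10.58 on Ing1-/-, 11.58 and 11.65 on DKO, and 10.78 and 11.10 on WT. No genotype overlapped another, and Ing1-/- lay below WT while Gadd45a-/- and DKO lay above it. Ccn5 rose in DKO against Ing1-/- by 1.21 ± 0.16 (limma adjusted p = 0.0174), lost without any 1 array of these genotypes (0.0638 to 0.151) and with no detection filter (0.0521). Its differences from WT did not pass (limma adjusted p = 0.0657 to 0.267), but with a variance trend and robust eBayes those in Gadd45a-/- and DKO did (limma adjusted p = 0.0394 and 0.0042), and with no background correction that in DKO (limma adjusted p = 0.00772).

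Proteases that cut binding proteins and their inhibitors made up a list of 8 genes with 6 tested. In Gadd45a-/- 1 rose and 1 fell against WT, in DKO 1 fell, and in Ing1-/- none passed (limma, 1 at an unadjusted p under 0.05). Over all tested probes 0.928% rose and 0.404% fell in Gadd45a-/-, and 1.95% fell in DKO. In Ing1-/- 10.7% of them had an unadjusted p under 0.05. The list's median difference was -0.27 in Gadd45a-/-, -0.05 in Ing1-/- and 0.04 in DKO. Htra1, a secreted serine protease known to cut IGF binding proteins and also listed for its IGFBP domain, read 10.57 and 10.64 on Gadd45a-/-, 11.43 and 11.19 on Ing1-/-, 10.92 and 10.99 on DKO, and 11.55 and 11.63 on WT. Every knockout array lay below both WT arrays, with Gadd45a-/- lowest, then DKO. Htra1 fell by 0.99 ± 0.12 in Gadd45a-/- (limma adjusted p = 0.0123). In DKO it fell by 0.64 ± 0.12 (limma adjusted p = 0.0336), and it differed by -0.28 ± 0.12 in Ing1-/- (limma adjusted p = 0.473). The Gadd45a-/- call was lost without any 1 WT or Gadd45a-/- array (0.0514 to 0.0988) and with only the arrays compared (0.0875). The DKO call was lost without any 1 WT, Gadd45a-/- or DKO array (0.0571 to 0.207) and under 4 other settings (0.0502 to 0.0872). Its second probe had the same order of genotype means. Stc1, stanniocalcin 1, an inhibitor of PAPP-A, read 8.59 and 8.51 on Gadd45a-/-, 7.99 and 7.79 on Ing1-/-, 8.07 and 8.06 on DKO, and 7.71 and 7.76 on WT. It was highest in Gadd45a-/-, where it rose by 0.81 ± 0.12 (limma adjusted p = 0.0206), a call lost without any 1 WT, Gadd45a-/- or DKO array (0.058 to 0.133) and under 3 other settings (0.0553 to 0.184).

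Downstream of the receptor, 19 of 27 listed signalling genes were tested and limma called none in any comparison with WT, with 2 at an unadjusted p under 0.05 in Gadd45a-/-, 3 in Ing1-/- and 4 in DKO. Their medians were 0.00, 0.05 and -0.03 in Gadd45a-/-, Ing1-/- and DKO. Over all tested probes 1.33%, 0.417% and 3.8% were called in these 3 comparisons with WT, and 12.4%, 10.7% and 15.7% had an unadjusted p under 0.05. Of 4 further genes, the IGF2 mRNA-binding proteins and H19, 2 were tested (Igf2bp1 and Igf2bp3) and limma called none, with none at an unadjusted p under 0.05. Igf2bp2 and H19, the maternally expressed RNA beside Igf2, were not tested. FOXO factors are held out of the nucleus by AKT, and of 11 listed FOXO targets 9 were tested, with 1 that rose in DKO and no call in Gadd45a-/- or Ing1-/- (limma, 4 and 1 at an unadjusted p under 0.05). That 1 was Pdk4, a kinase that restrains pyruvate oxidation, which read 6.71 and 6.55 on Gadd45a-/-, 6.67 and 6.77 on Ing1-/-, 7.93 and 7.89 on DKO, and 6.24 and 6.06 on WT. The DKO arrays lay above all others, the single knockouts overlapped each other, and both lay above WT. Pdk4 rose by 1.76 ± 0.12 in DKO against WT (limma adjusted p = 0.000763), kept whichever array was left out, and also rose by 1.28 against Gadd45a-/- and by 1.19 against Ing1-/- (limma adjusted p = 0.0107 and 0.00825), both lost without any 1 array of the genotypes compared. The other 8 tested FOXO targets did not pass in DKO, and the median of the 9 was -0.05.

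**Figure D3:**
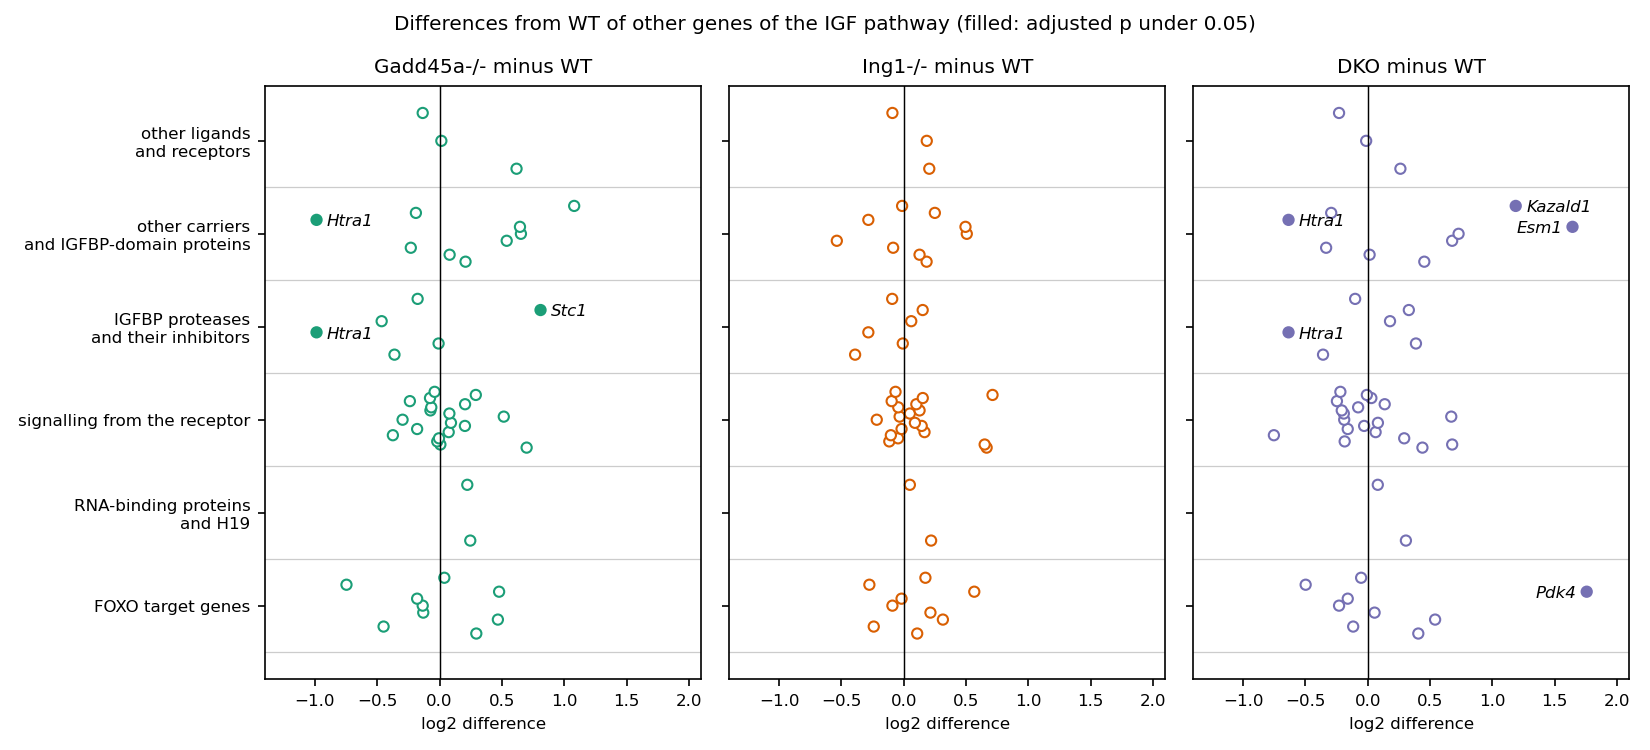
Log2 difference from WT (horizontal axis) of each tested gene of 6 lists of the IGF pathway (rows) in Gadd45a-/-, Ing1-/- and DKO, 1 point a gene at its brightest tested probe and filled where the limma adjusted p was under 0.05. Htra1 stands in 2 lists. No gene passed in Ing1-/-. In DKO Pdk4 lies at 1.76, and the Esm1 and Kazald1 points are fitted values against a WT group at background, for which only a bound was measured.

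The 5 other genes whose level ran most like that of Igfbp3 over the 8 arrays were chosen by Pearson's r among 353 probes whose genotype means span at least 1 log2 unit. The arrays fall into 4 genotypes, so r mainly follows the genotype means and is given as a description. Irf9, an interferon response factor, had r = 0.959, and read 7.70 and 7.65 on Gadd45a-/-, 7.34 and 7.55 on Ing1-/-, 7.20 and 7.11 on DKO, and 8.25 and 8.07 on WT. Dnmt3l, a cofactor of DNA methyltransferases, had r = 0.954 and was at least 1.94-fold lower in DKO than in WT, and Ctsc, a lysosomal protease, had r = 0.95. Acot1, a thioesterase of fatty acid metabolism, had r = 0.941 at its dimmer kept probe, which was above background on the WT arrays only. Its brighter probe, above background on all arrays, read 8.57 and 8.63 on Gadd45a-/-, 8.04 and 8.17 on Ing1-/-, 8.23 and 8.13 on DKO, and 9.06 and 9.10 on WT, so that every knockout array lay below both WT arrays and Ing1-/- and DKO overlapped. Lum, a collagen-binding proteoglycan, had r = 0.935 and was at least 2.59-fold lower in DKO. At the Irf9 and Ctsc probes chosen, both above background on all arrays, the mean was lowest in DKO, next in Ing1-/-, then in Gadd45a-/-, and highest in WT. The dimmest Ctsc probe averaged lower in Ing1-/- (6.97) than in DKO (7.15). The chosen Acot1 and Lum probes were at background on the Ing1-/- and DKO arrays and the Dnmt3l probe on the DKO arrays, so their order among these was not measured. Of the members Igf1 came closest (r = 0.874), then Igfbp2 (0.712), Igfbp4 (0.463), Igfbp6 (0.362), Igf1r (0.176), Igfbp7 (-0.258) and Igfbp5 (-0.614), each at its brightest probe.

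**Figure D4:**
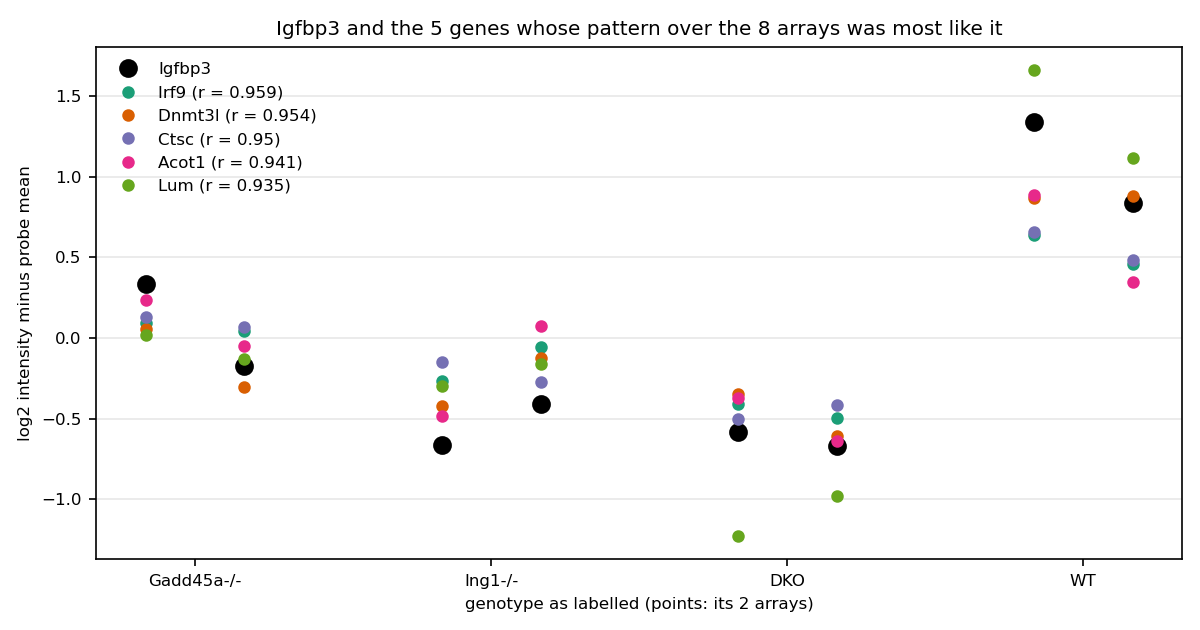
Log2 intensity of each probe minus its mean over the 8 arrays (vertical axis) for Igfbp3 and the 5 genes most like it, on the 2 arrays of Gadd45a-/-, Ing1-/-, DKO and WT. All 6 probes lie highest on the WT arrays, and the Igfbp3, Dnmt3l, Acot1 and Lum points on the DKO arrays are at background.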

How the data were processed

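Total RNA of 8 MEF samples was labelled as biotinylated cRNA and hybridised to Illumina arrays, per the labels. The deposited table holds, for each array, average intensity values that are linear and not normalized, and a detection p-value for every probe, per the file headers. GenomeStudio 2011.1 is named in the submitters' processing notes. A second deposited table, in which the authors give processed intensity values (column medians 8.856 to 8.884, 34.5% below 0), was an alternative; its exact method is unknown.

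Here limma 3.58.1 in R 4.3.3 was used: neqc (normexp with an offset of 16, taking the negative controls' mean and variance from the detection p-values, then quantile normalization and log2), then a filter that kept 14867 of 45281 probes (32.8%). The model had 1 mean for each genotype over all 8 arrays (lmFit, eBayes, 4 residual df, 3.79 prior df), with Benjamini-Hochberg adjustment over all kept probes within a contrast and a threshold of 0.05. Intervals (95%) use the moderated t with 7.79 df. For a bound ("at least"), the dim genotype was given on each array the probe's own signal or, if higher, that of the dimmest probe above background, and the brighter genotype's mean was set against their mean. Of all probes 34885 had 1 gene symbol, 18 several and 10378 none, and 34807 matched RefSeq (GRCm38.p6). A gene was counted at its brightest kept probe.

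The members and lists were chosen with earlier results of these data known. Named were all members, up to 4 of the most changed called genes of each list, Igf2, Igf2r, Insr, Igfbp1 and Irs1, and the 5 genes most like Igfbp3 among probes spanning 1 log2 unit. Marker genes and the targeted genes are given as checks. The fit was tested on simulated data. Deviations of arrays with the same replicate number correlated at -0.0918 to 0.276, so the numbers were not treated as pairs. No slide or scan batch was found in the tables used here. The number of arrays limits the precision.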

Additional observations from a re-analysis of the deposited data

Results flagged for a closer look

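Among all members and marker genes reported, 5 genes, each a marker of another cell type, had an interaction that passed (limma, over all kept probes): the difference between DKO and Gadd45a-/- was not that between Ing1-/- and WT. Of these, 4 were among 5 tested macrophage markers and 1 was among 4 tested cartilage and bone markers. Over all tested probes 0.148% had an interaction that passed. For C1qb, a complement subunit made by macrophages, the interaction was -3.23 (limma adjusted p = 0.00906). It read 7.95 and 7.64 on arrays labelled Gadd45a-/-, 7.35 and 7.69 on Ing1-/-, 6.08 and 6.24 on DKO, and 5.81 and 6.03 on WT, with 1 WT array above background. C1qc gave -2.72 (limma adjusted p = 0.0344), with 1 array above background in DKO and 1 in WT. C1qc passed the filter through Gadd45a-/- and Ing1-/- alone, where it was high, so its interaction was partly a condition of its being tested. The Fc receptor chain Fcer1g gave -1.62 (limma adjusted p = 0.0495) and the lysosomal membrane protein Laptm5 gave -1.58 (limma adjusted p = 0.0203). Col2a1, the main collagen of cartilage, gave -2.11 (limma adjusted p = 0.0122). The Fcer1g and Laptm5 calls were lost without any 1 array (limma adjusted p = 0.0905 to 0.256 and 0.0503 to 0.164). The C1qc call was lost without any 1 knockout array (limma adjusted p = 0.1 to 0.214), that of Col2a1 without any 1 Gadd45a-/- or Ing1-/- array or DKO replicate 1 (limma adjusted p = 0.0661 to 0.113), and that of C1qb without Gadd45a-/- replicate 1 or DKO replicate 1 (limma adjusted p = 0.0661 to 0.0751). No member of the IGF axis passed this test (limma, 1 of 7 genes at an unadjusted p under 0.05, Igfbp4).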

How the results depend on the processing

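Of 1330 member values under the alternatives 1314 kept their side of the threshold, 8 lost a call and 8 gained one, and none that was called or whose interval excluded 0 was reversed. Over all named genes these numbers were 2185, 2092, 72 and 21, and 84 values that no fit called and whose interval holds 0 changed sign. Before these alternatives 1 member value was called, the dimmer Igf1 probe in DKO minus WT, and the 8 calls lost among members were all of it. The member values that kept their side were thus nearly all values without a call. The count of members called, 0 in each comparison, became 1 for Ing1-/- minus WT and 1 for DKO minus Ing1-/- with a variance trend and robust eBayes and with no background correction, each time Igfbp4. It became 1 for DKO minus WT with median scaling and with any kept probe of a gene, each time Igf1, and it stayed 0 whichever array was left out. With no background correction, which keeps a shared floor under dim probes, the fitted Igfbp3 difference from WT was -0.52 in Gadd45a-/-, -0.76 in Ing1-/- and -0.79 in DKO; without each array in turn it ran from -1.26 to -0.75, from -1.87 to -1.37 and, in DKO at background, from -1.97 to -1.46. With the replicate block 0 members were called in every comparison and Igf1 kept its call, while Htra1 in DKO minus WT did not (limma adjusted p = 0.051). Over all probes the calls were 198 for Gadd45a-/- minus WT (87 to 335 under other settings, 33 with only the arrays compared, 37 to 140 without 1 array), 62 for Ing1-/- minus WT (20 to 140, 7, and 7 to 24) and 565 for DKO minus WT (317 to 842, 265, and 140 to 496). They were 58 for DKO minus Gadd45a-/- (17 to 110, 23, and 4 to 74), 165 for DKO minus Ing1-/- (56 to 280, 120, and 5 to 178) and 22 for the interaction (6 to 40 and 1 to 18), which with only the arrays compared has no other fit. Leaving out an array also lowers the residual df.

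Dim probes (Igfbp3, Esm1, Kazald1) are limited by background, bright ones (Igfbp5, Igfbp7, Igf2) were not checked for saturation, and 2 arrays a genotype limit all.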
